A study of Mus musculus with 7 samples.

Results

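Glycine receptors and glycine handling were examined through 8 genes of the 32285 in the deposited count tables, in nuclei of the posterolateral cortical amygdala (plCoA), an olfactory region that receives direct input from the olfactory bulb. The genes were Glra1, Glra2 and Glra3 (the alpha subunits of the glycine receptor), Glrb (its beta subunit), Slc6a9 and Slc6a5 (the glycine transporters GlyT1 and GlyT2), Gldc (glycine decarboxylase of the mitochondrial glycine cleavage system) and Gphn (gephyrin). They were found by their symbols, and all 8 were present once. The set was selected on measured values of these same nuclei, namely the UMIs of these genes in each class, the glutamatergic nuclei that carry Glra1 and the levels per replicate of the anterior and posterior domain, so their levels by class and by domain are given as a description, without a test. Single-nucleus RNA sequencing was done on nuclei from male wild-type C57BL6J mice aged 8 weeks, which had been housed singly and deprived of sensory input before sacrifice in both groups, from the anterior (aplCoA) or posterior (pplCoA) domain. Each domain had 3 replicates, each made from tissue pooled over several mice, and aplCoA replicate 1 was sequenced as 2 libraries whose counts were summed here, which gave 7 libraries and 6 replicates. Nuclei were enriched by fluorescence-activated sorting on a DNA dye, so no cell type was selected.

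The glycine receptor is a ligand-gated chloride channel built of alpha and beta subunits. The alpha subunits carry most of the glycine site and differ in their age and place of expression, and the beta subunit binds gephyrin, which holds glycine and GABA-A receptors at inhibitory synapses. Glycine is cleared by GlyT1, mainly on glia, and by GlyT2, which marks neurons that release glycine and is best known from the spinal cord and brainstem. Gldc breaks glycine down in astrocytes, and glycine also acts as a co-agonist of NMDA receptors. Gephyrin has a further role in all cells, the synthesis of the molybdenum cofactor.

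On the GRCm38 build, Glra1 lies at chr11:55514238-55608198 on the minus strand, Glra2 at chrX:165129017-165327393 on the minus strand, Glra3 at chr8:55940460-56130070 on the plus strand, and Glrb at chr3:80843599-80913660 on the minus strand. Slc6a9 lies at chr4:117834506-117875198 (plus), Slc6a5 at chr7:49910146-49963856 (plus), Gldc at chr19:30098447-30175429 (minus) and Gphn at chr12:78226379-78684772 (plus). All are protein coding. Reads from introns and exons were counted together, and Slc6a9 overlaps Ccdc24, B4galt2 and Gm17114 on the other strand, while the antisense gene Gm12236 lies inside Glra1.

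The promoters of Glra2 and Glra3 are printed because both genes had higher levels in the aplCoA glutamatergic nuclei and Glra3 was highest in clusters led in part by Meis1, a homeobox factor whose family binds TGACAG. The sequences are from RefSeq on GRCm38.p6, run 5′ to 3′ in the direction of the gene from 250 bases before to 50 after the RefSeq start (165327393 for Glra2 and 55940418 for Glra3, which for Glra3 differs from the start of the gene given above), and capitals mark TGACAG on either strand (CTGTCA on the reverse).
Glra2, chrX:165327344-165327643, minus strand: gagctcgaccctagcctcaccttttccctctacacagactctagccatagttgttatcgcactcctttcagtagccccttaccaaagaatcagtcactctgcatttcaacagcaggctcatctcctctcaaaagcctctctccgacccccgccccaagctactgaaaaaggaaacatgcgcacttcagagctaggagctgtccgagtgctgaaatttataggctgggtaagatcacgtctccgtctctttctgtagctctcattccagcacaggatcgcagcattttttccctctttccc
Glra3, chr8:55940168-55940467, plus strand: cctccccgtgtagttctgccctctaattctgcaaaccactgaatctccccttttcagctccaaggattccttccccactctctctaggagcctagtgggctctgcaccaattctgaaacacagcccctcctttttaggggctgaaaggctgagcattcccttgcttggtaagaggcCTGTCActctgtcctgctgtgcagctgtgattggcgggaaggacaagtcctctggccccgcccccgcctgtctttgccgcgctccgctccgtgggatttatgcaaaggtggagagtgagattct
The Glra3 promoter held 1 match, on the reverse strand, and the Glra2 promoter held 0. Over all 32851 promoters of this length, 19.2% held a match, so a match is common. Of the 7 genes of the set with a promoter entry, Glra3 and Slc6a5 had a match.

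After filtering, 46412 nuclei remained, 4033 to 9705 per library, with a median of 5147 to 6754 UMIs (unique molecular identifiers) per nucleus. Over all barcodes, before filtering, the libraries held 50812605 to 129624583 UMIs. Clusters were named from marker genes, and each class name here means that a cluster resembled that type by its markers. The classes were 19462 glutamatergic and 4847 GABAergic nuclei, 9769 astrocytes, 3641 oligodendrocyte precursors (OPCs), 309 newly formed (NFOLs) and 1532 mature oligodendrocytes (MOLs), 2805 microglia, 261 macrophages, 1057 vascular leptomeningeal cells (VLMCs), 1054 arachnoid barrier cells (ABCs), 41 mural cells and 1634 unnamed nuclei. The vesicular glutamate transporters Slc17a7 and Slc17a6 were at 212 and 37.7 CPM (the usual depth-scaled unit of UMI counts) in glutamatergic and 10.2 and 3.06 in GABAergic nuclei, and Gad1, an enzyme of GABA synthesis, was at 277 CPM in GABAergic nuclei. Libraries shared 5 to 37 cell barcodes in pairs. In pplCoA replicate 1 the glutamatergic nuclei had a makeup unlike that of pplCoA replicates 2 and 3, as given below for single clusters. Some results, such as the domain differences of glutamatergic Glra1 and astrocytic Slc6a9, are therefore also given without that replicate.

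Glra1 was sparse in every class. Its level is given in CPM, the UMIs of the gene scaled by all UMIs of that class in a replicate, as mean ± SD over 6 replicates. It was 5.66 ± 3.76 in glutamatergic nuclei, 2.44 ± 0.71 in GABAergic nuclei and 1.95 ± 0.89 in astrocytes, and 0 UMIs were found in 1057 VLMCs and in 261 macrophages. The range over all 6 glutamatergic replicates, 1.36 to 10.1, took in the mean of both other classes. That range spans both domains. The aplCoA replicates, at 7.48 to 10.1, all lay above both other means, and the overlap came from the pplCoA replicates, at 1.36 to 4.67. Free RNA, measured in barcodes with fewer than 100 UMIs, held Glra1 at 3.04 CPM over all libraries and 1.42 to 6.08 in single libraries. At least 1 Glra1 UMI was found in 5.87% of glutamatergic nuclei (median depth 12357 UMIs), 1.71% of GABAergic nuclei (7980 UMIs) and 0.737% of astrocytes (3340 UMIs). After each nucleus was thinned to 2000 UMIs, the shares were 1.46%, 0.440% and 0.446%, so at equal depth the GABAergic share was near that of astrocytes.

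Glra2 and Glra3 were neuronal, with opposite orders in the neuron classes. Glra2 was at 83.5 ± 8.55 CPM (n = 6) in GABAergic nuclei and 28.3 ± 8.25 in glutamatergic nuclei, with no overlap, since the lowest GABAergic replicate had 72.7 and the highest glutamatergic replicate 41.6. Glra3 was at 88.8 ± 18.2 CPM in glutamatergic nuclei and 29.1 ± 4.45 in GABAergic nuclei, again without overlap (lowest 68.2 against highest 33.7). In the glial and vascular classes, mean Glra2 was at most 1.58 CPM and mean Glra3 was 1.68 to 3.59 CPM. Free RNA held 23.1 CPM of Glra2 and 47.7 CPM of Glra3.

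Glrb was found in neurons and in most other classes, and was highest in NFOLs. NFOLs had 423, 485 and 644 CPM in aplCoA replicates 1, 2 and 3 and 679, 614 and 531 in pplCoA replicates 1, 2 and 3. Next came VLMCs, at 330, 196 and 229 CPM in aplCoA and 306, 293 and 298 in pplCoA, so every NFOL value lay above every VLMC value. Astrocytes (130 ± 8.86), glutamatergic nuclei (122 ± 7.67), MOLs (119 ± 13.2), OPCs (114 ± 6.43), ABCs (114 ± 27.6) and GABAergic nuclei (110 ± 6.50) followed within overlapping spreads. Macrophages (13 ± 10.9) and microglia (7.09 ± 6.06) were lowest, and the free RNA value was 117.

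Slc6a9 was mainly non-neuronal. It was at 52.5 ± 13.2 CPM in VLMCs, 35.5 ± 15.2 in MOLs, 20.4 ± 2.91 in OPCs, 18.1 ± 11.6 in NFOLs, 14.5 ± 6.89 in astrocytes, 9.61 ± 1.92 in GABAergic and 4.95 ± 0.66 in glutamatergic nuclei. The VLMC and MOL ranges overlapped, and the MOL spread came mostly from pplCoA replicate 3, with 5.04 CPM against a median of 40.6. Free RNA held 15.3 CPM over all libraries and 11.3 to 19.2 in single libraries. The astrocyte and neuron means lay below the pooled value, but every aplCoA astrocyte replicate, given below, lay above it. Microglia were at 1.21 CPM and macrophages at 0. Slc6a5 had 15 UMIs in glutamatergic nuclei, 3 in astrocytes and 1 in GABAergic nuclei. In 0 of 3641 OPCs was a UMI found, which allows a share of up to 0.0824% of OPCs with a UMI at their median depth of 3950 UMIs and does not bound the share that expresses the gene.

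Gldc marked astrocytes. They had 282, 303 and 318 CPM in aplCoA and 357, 394 and 398 CPM in pplCoA, and 57.8% of astrocytes had a UMI. OPCs followed at 21.8 ± 4.13 CPM, near the free RNA value of 20.2, and NFOLs at 6.72 ± 6.23. Glutamatergic nuclei were at 2.38 CPM and GABAergic nuclei at 1.56 CPM. Gphn was found in all classes and was highest in astrocytes at 1203 ± 106 CPM. MOLs (702 ± 64.1), GABAergic (656 ± 26.5) and glutamatergic nuclei (641 ± 58.6), OPCs (624 ± 39.0) and NFOLs (618 ± 55.9) were within overlapping spreads, and microglia were lowest at 378 ± 24.2. The lowest astrocyte replicate, 1063 CPM, lay above the highest replicate of any other class listed here.

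**Figure D1:**
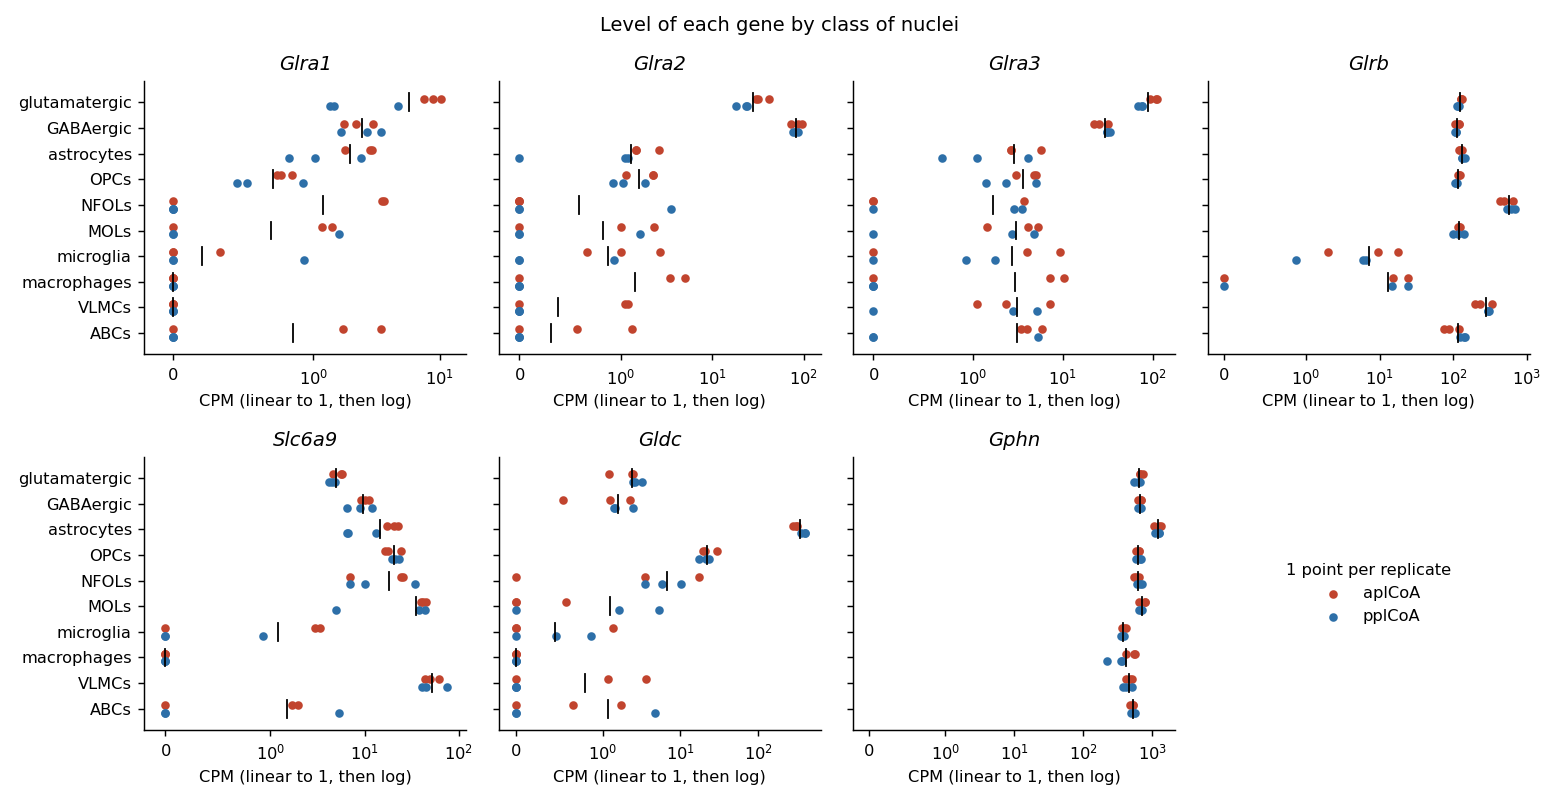
Level of 7 genes in CPM (axis linear to 1, then log) by class of nuclei, with 1 point per replicate, red for aplCoA and blue for pplCoA, and a black tick at the mean of 6 replicates. Glra2 and Glra3 sit high in neurons, Gldc in astrocytes, and Glrb is highest in NFOLs at 563 CPM.

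Of the astrocytes, the cluster led by Myoc, A2m and Gfap (cluster 17, 1194 nuclei) stood apart for Gldc and Glrb. Myoc and Gfap mark astrocytes near the brain surface. Pooled Gldc was 63.0 CPM there, against 389 in the cluster led by Rpe65, Grin2c and Atp13a4 (cluster 1), 306 in that led by C030005K06Rik and Etnppl (cluster 4) and 342 in that led by 8030451A03Rik, Tnc and Aldh1a1 (cluster 12). Pooled Glrb was 24.3 CPM in cluster 17, against 145, 147 and 111 in the same 3 clusters. Gphn showed no such drop, at 1179 CPM in cluster 17 and 1082 to 1256 in the others. The genes of the set took no part in the clustering. Cluster 17 made up 11.9%, 16.5% and 18.6% of astrocytes in the aplCoA replicates and 11%, 6.99% and 3.03% in the pplCoA replicates.

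The glutamatergic clusters differed in Glra1. Cluster 5, led by Vwa5b1, Glra1 and Gulp1 (1450 nuclei), held 50.8 CPM of Glra1 over its pooled nuclei. Its replicates with at least 20 nuclei gave 51.8, 58.9 and 48.7 CPM in aplCoA and 40.7 in pplCoA replicate 1, all above every replicate of every other glutamatergic cluster with that many nuclei. Cluster 6, led by Rxfp1, Foxp2 and Meis1 (1439 nuclei), was next at 20.8 CPM, with 25.7, 10.4, 14.3 and 21.8 in the same replicates. Cluster 2 (6330411D24Rik, Gm2164) was at 7.0 CPM, with 5.9, 17.6 and 4.6 in aplCoA and 8.8, 2.8 and 0.5 in pplCoA, which overlapped cluster 6. Cluster 1 was at 1.1 CPM, and cluster 21 (Ndnf, Trp73; 138 nuclei) had 0 Glra1 UMIs.

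The other alpha subunits had different orders over these clusters. Glra3 was highest in clusters 6 (300 CPM; 283, 339, 302 and 359 in aplCoA 1, 2 and 3 and pplCoA 1) and 13 (Ebf1, Meis1, Pbx3; 276 CPM; 265, 278, 301 and 308), which did not differ beyond their spread. Clusters 9 (Moxd1) and 5 followed at 163 and 162 CPM. Cluster 9 was a pplCoA cluster with 182, 159 and 165 CPM in the pplCoA replicates, and it held only 5.8 CPM of Glra2 and 1.5 of Glra1. Glra2 was highest in clusters 5 (82.7 CPM), 6 (78.7), 14 (Ebf2; 71.1) and 16 (Gm31698; 69.0), whose replicates overlapped, with 79.4, 74.6, 91.6 and 92.1 in cluster 5 and 53.8, 83.9, 121 and 63.5 in cluster 14. Clusters 9 and 2, at 5.8 and 6.9 CPM, were lowest. Cluster 16 held 21.1 CPM of Glra3, so a high Glra2 level came with either a high or a low Glra3 level.

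Glrb and Gphn varied less. Glrb ran from 86.8 CPM in cluster 8 to 173 in cluster 13 over the 19 clusters with at least 50 nuclei, and Gphn was lowest in cluster 9 and highest, at 926, in cluster 11 (Sdk1). Over these 19 clusters, Pearson's r of log2(CPM + 1) was 0.62 for Glra1 with Glra3 (Spearman's rho 0.51), 0.44 for Glra1 with Glra2, 0.09 for Glra2 with Glra3, 0.54 for Glra3 with Glrb and 0.63 for Glra2 with Gphn. These describe clusters that share libraries and depth, and clusters are not replicates.

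**Figure D2:**
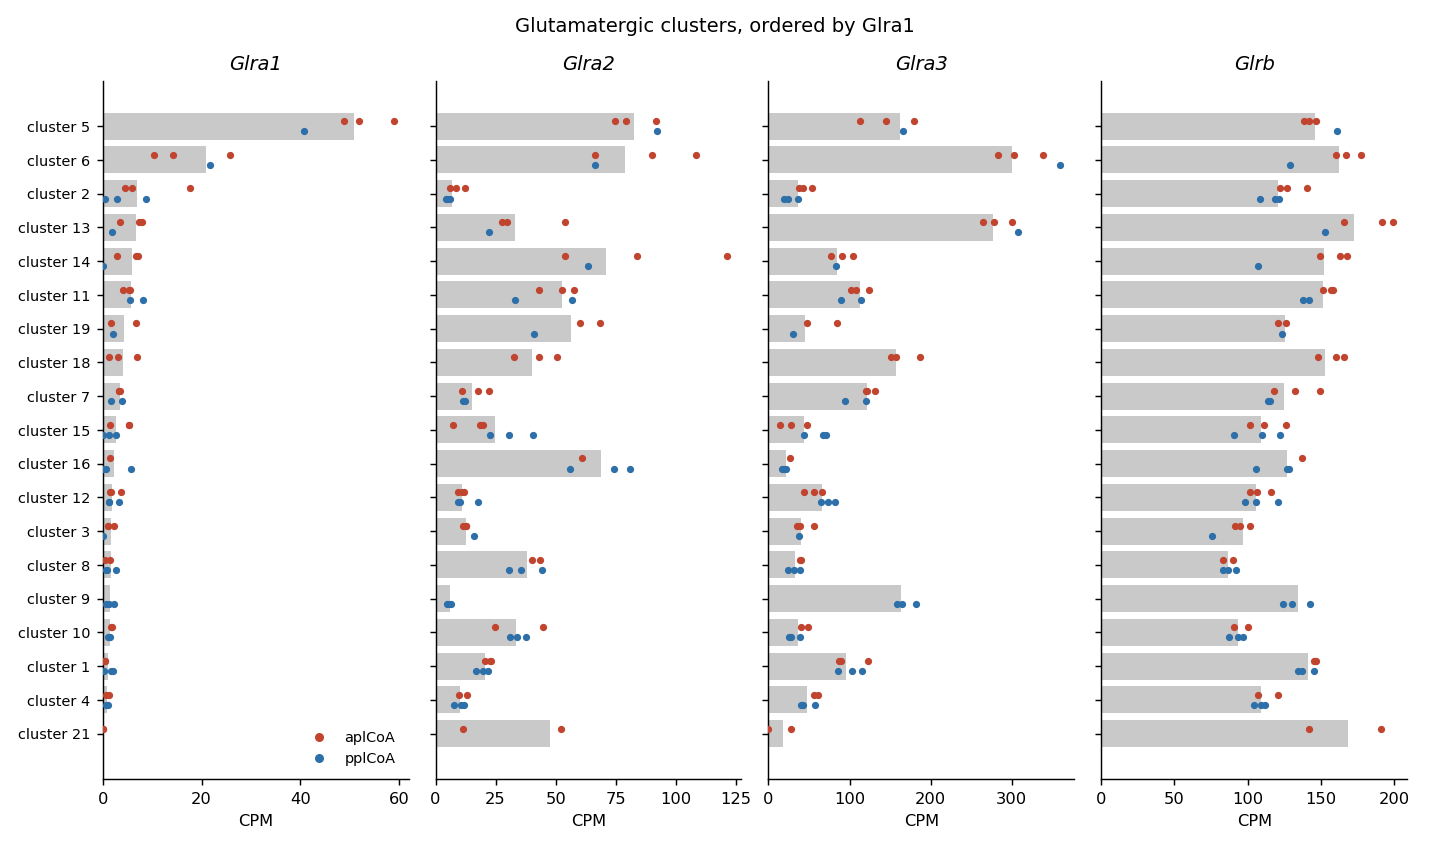
Glra1, Glra2, Glra3 and Glrb in CPM over the 19 glutamatergic clusters of at least 50 nuclei, ordered by Glra1 and labelled by cluster number. Grey bars are pooled nuclei, points are replicates with at least 20 nuclei (red aplCoA, blue pplCoA), and Glra1 is highest in cluster 5 at 50.8 CPM while Glra3 is highest in cluster 6 at 300 CPM.

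Clusters 5, 6, 13 and 14 were mostly aplCoA clusters. Cluster 5 held 824, 151 and 326 nuclei in the aplCoA replicates and 148, 1 and 0 in pplCoA replicates 1, 2 and 3. Cluster 6 held 855, 151 and 338 against 91, 3 and 1, cluster 13 held 509, 46 and 167 against 54, 0 and 0, and cluster 14 held 393, 49 and 119 against 35, 0 and 0. Almost all pplCoA nuclei of these clusters thus came from replicate 1.

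A Glra1 UMI was found in 1143 glutamatergic nuclei, 805 of them with 1 UMI and the highest with 8. The share was 8.52% (95% exact binomial interval 7.85 to 9.23), 7.94% (6.63 to 9.40) and 6.40% (5.61 to 7.28) in the aplCoA replicates, and 5.16% (4.45 to 5.95), 1.61% (1.14 to 2.21) and 1.58% (1.10 to 2.19) in the pplCoA replicates. The intervals cover counting error only. All aplCoA shares lay above all pplCoA shares, with pplCoA replicate 1 nearer to aplCoA than its companions were. Thinned to 2000 UMIs, the shares were 2.26%, 1.86% and 1.67% against 1.07%, 0.327% and 0.321%. Cluster 5 held 457 of these nuclei (40.0%) and clusters 5 and 6 together 648 (56.7%). In cluster 5, 31.5% of nuclei had a Glra1 UMI, and in cluster 6, 13.3%.

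Most glutamatergic nuclei showed at most 1 of the 3 alpha genes. None was seen in 38.5% of nuclei, 1 in 46.2%, 2 in 13.9% and all 3 in 1.41% (275 nuclei). All 3 were seen in 10.3% of cluster 5 and 5.91% of cluster 6 nuclei. These shares depend on depth, since a gene without a UMI in a nucleus may still be expressed there.

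The GABAergic clusters differed in Glra2 and Glra3. Cluster 11 (199 nuclei), led by Gm10754, St8sia6 and Nrp1, was only weakly Lamp5-like by its markers. Its marker score (mean scaled marker level) was 0.25, against 0.75 and 0.95 in Lamp5-like clusters 1 and 8. Glra2 was highest in cluster 11 at 253 CPM. Its replicates had 224, 243 and 242 in aplCoA and 299 in pplCoA replicate 1, above all replicates of the other GABAergic clusters. The Vip-like clusters 5 (Vip, Tshr) and 4 (Crh, Stk32a) followed at 148 and 142 CPM, with unnamed cluster 13 (Itga8, Gulp1) at 139, and these 3 overlapped. The Sst-like cluster 16 (Fign, Gldn) was lowest at 19.7 CPM. Glra3 was at 81.7 CPM in cluster 13 (52.4 to 143 over replicates), 60.5 in the Sst-like cluster 2 (Lama4, Man1a; 27.5 to 68.6), 58.1 in unnamed cluster 6 (Gm32647, Slit2; 42.6 to 91.7) and 56.4 in cluster 10 (37.6 to 64.4), and these 4 overlapped. It was at 4.4 and 5.9 CPM in the Vip-like clusters. Vip-like nuclei thus had Glra2 with little Glra3. Glra1 was highest in unnamed cluster 10 (Kcnmb1, Pax6) at 15.8 CPM, with 7.5, 15.7 and 19.3 in aplCoA and 21.8 in pplCoA replicate 1, from 33 UMIs in 12.5% of its nuclei, a range that overlapped cluster 15 (20.4 in pplCoA replicate 2, from 5 UMIs), cluster 12 (14.5 and 11.2) and cluster 11 (11.1). Over the 16 clusters, r was 0.35 for Glra2 with Glra3 and 0.61 for Glra2 with Gphn, with the same limits as above.

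**Figure D3:**
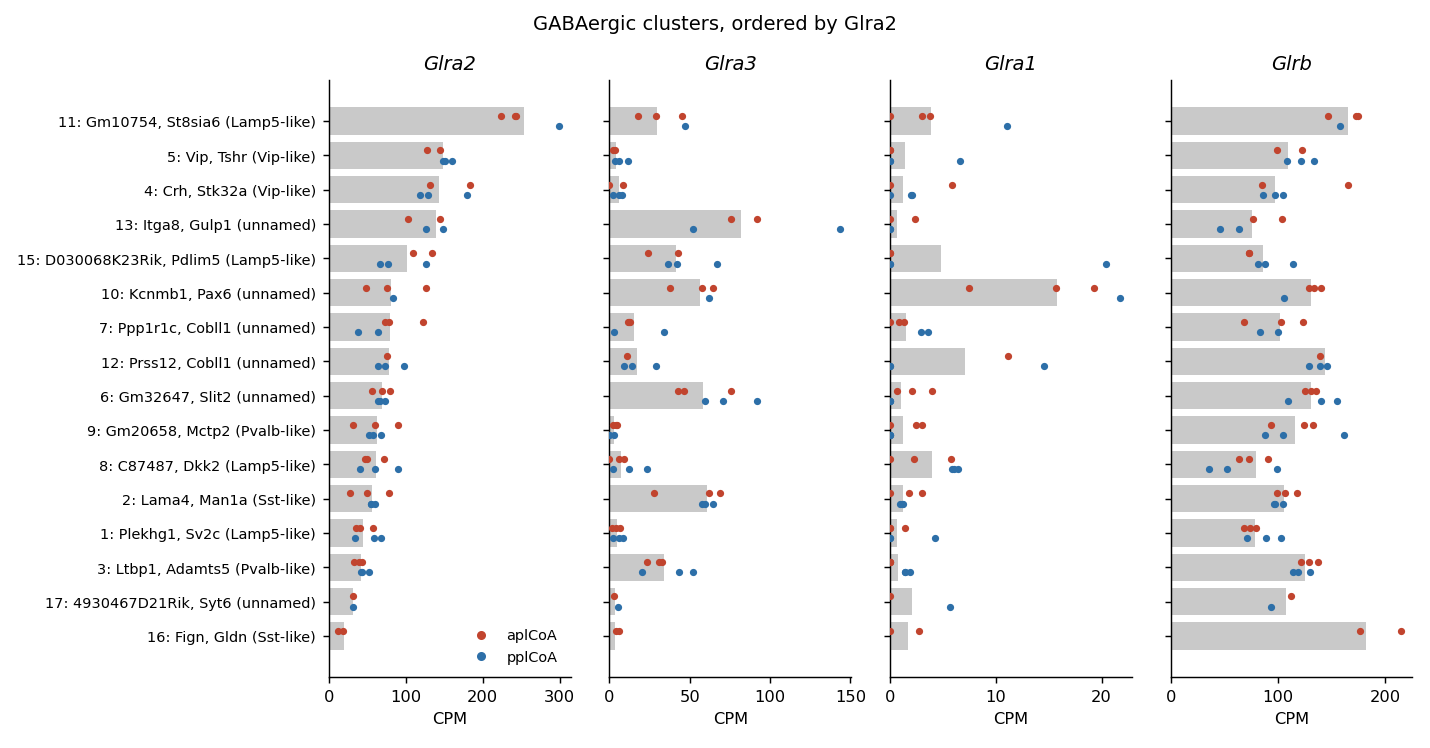
Glra2, Glra3, Glra1 and Glrb in CPM over the 16 GABAergic clusters of at least 50 nuclei, ordered by Glra2. Grey bars are pooled nuclei, points are replicates with at least 20 nuclei (red aplCoA, blue pplCoA), and cluster 11 has the highest Glra2 level at 253 CPM.

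The domain comparison asked whether these levels differed along the anterior to posterior axis. In glutamatergic nuclei, Glra1 was at 10.1, 8.84 and 7.48 CPM in aplCoA and 4.67, 1.45 and 1.36 in pplCoA. Every aplCoA value was above every pplCoA value, and pplCoA replicate 1 was the highest of its group. The fitted log2 difference, aplCoA minus pplCoA, was 1.67 ± 0.36 (SE), and 2.56 without pplCoA replicate 1. Free RNA held Glra1 at 1.42 to 6.08 CPM in single libraries, and its part in this gap was not tested. Glra2 was at 32.1, 30.4 and 41.6 CPM against 24.3, 18.1 and 23.3 (log2 difference 0.58 ± 0.13), and Glra3 at 109, 92.2 and 111 against 76.2, 68.2 and 76.0 (0.42 ± 0.08). Both were higher in aplCoA without overlap. Glrb was at 127, 127 and 133 against 113, 117 and 118, without overlap in CPM. Its fitted gap was small (0.07 ± 0.07), about the size of its SE. CPM is scaled by depth alone, while the fit also scaled the replicates by TMM (trimmed mean of M-values).

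The other 4 genes overlapped between domains in glutamatergic nuclei. They were Slc6a9 (5.84, 5.69 and 4.65 against 4.81, 4.17 and 4.55 CPM), Gphn (650, 653 and 723 against 659, 613 and 546), Gldc (log2 difference -0.47 ± 0.24) and Slc6a5 (-0.23 ± 0.67, from 15 UMIs). So 4 of the 8 genes lay wholly above in aplCoA, where 22.7% of the 23489 genes with at least 10 UMIs did and 10.8% lay wholly below. The set was chosen in view of this contrast, and nothing is read from that count. The median log2 difference was 0.12 over the 8 genes and 0.01 over all.

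Clusters 5, 6, 13 and 14 had 0 to 3 nuclei each in pplCoA replicates 2 and 3. They were chosen with their levels and shares known, so the values without them are a description, and the part of cluster makeup in the gap was not tested. Cluster 5 held 48.2%, 51.2% and 49.3% of glutamatergic Glra1 UMIs in the aplCoA replicates and 24.3%, 0% and 0% in the pplCoA replicates. Without cluster 5, Glra1 was 4.86 ± 0.86 CPM (SD, n = 3) in aplCoA and 2.15 ± 1.29 in pplCoA, still without overlap. Without clusters 5 and 6 it was 3.47 ± 0.58 against 2.03 ± 1.08 and the domains overlapped. They overlapped for Glra2 and Glra3 too (log2 ratio of means 0.22 and 0.14), while Glrb stayed above (0.10). Over all glutamatergic nuclei this ratio, unlike the fitted difference above, was 0.66 for Glra2, 0.50 for Glra3 and 0.15 for Glrb. Without clusters 5, 6, 13 and 14, Glra2 (0.01), Glra3 (-0.07) and Glrb (0.04) all overlapped. Cluster 3, also mostly aplCoA (1835 against 83 nuclei), was kept, with 12.5 CPM of Glra2 and 40.0 of Glra3 in aplCoA. So was cluster 9 (12 against 1026 nuclei), with 164 CPM of Glra3 in pplCoA. The clusters left out were high in at least 1 alpha gene, so a smaller gap was partly fixed by that choice.

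In the 4 glutamatergic clusters with at least 20 nuclei in all replicates (1, 2, 12 and 15), the domains did not overlap in 5 of 28 pairs of a gene of the set and a cluster with at least 10 UMIs, where 14.8% of the 64977 such pairs over all genes did not. Glra1 overlapped in each of the 4. In cluster 2, Glra3 was 44.7 ± 8.27 CPM in aplCoA and 26.6 ± 8.49 in pplCoA, and Glrb 130 ± 9.49 against 116 ± 6.69, both without overlap. In cluster 15 (Bdnf, Chrm2) the order of Glra2 was the other way, 15.1 ± 6.95 in aplCoA and 31.3 ± 8.87 in pplCoA. Slc6a9 was above in aplCoA in cluster 12, at 7.35 ± 1.69 against 3.92 ± 2.23 CPM. The fifth pair was Gldc in cluster 15, with 13 UMIs and the higher level in pplCoA.

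**Figure D4:**
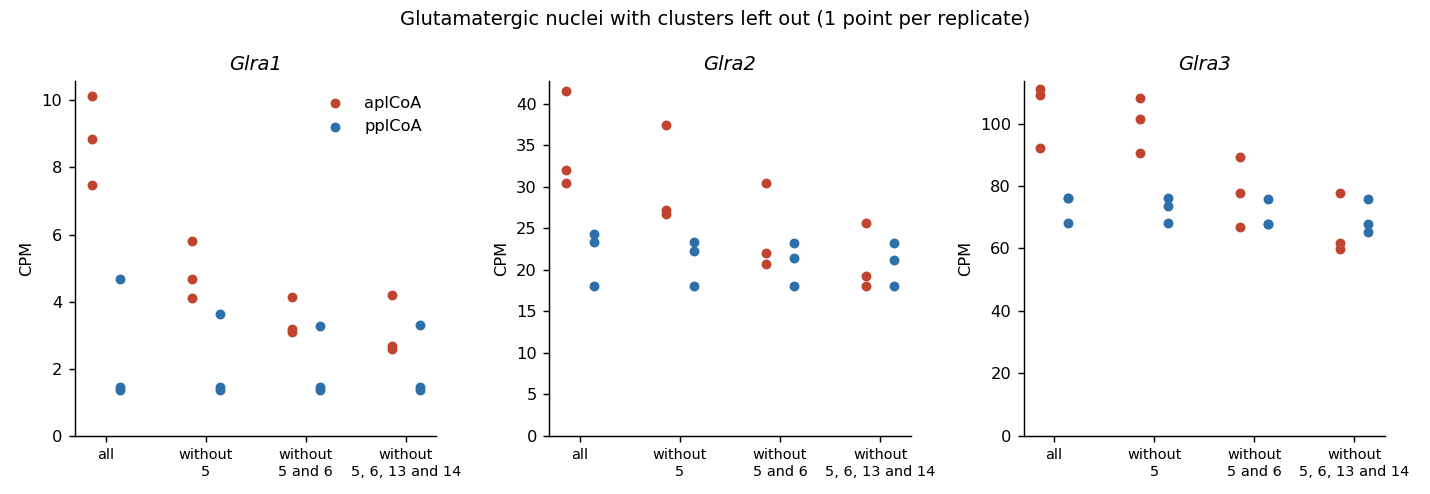
Glra1, Glra2 and Glra3 in glutamatergic nuclei in CPM, 1 point per replicate (red aplCoA, blue pplCoA), for all nuclei and after leaving out clusters 5, then 6, then 13 and 14. Glra1 in aplCoA goes from a mean of 8.82 to 4.86 CPM without cluster 5, and the domains overlap for all 3 genes without clusters 5 and 6.

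In GABAergic nuclei, all 7 genes with at least 10 UMIs overlapped between domains, where 14.1% of 18965 genes lay wholly above and 8.17% wholly below in aplCoA. Glra2 was at 72.7, 87.1 and 96.7 CPM in aplCoA and 80.3, 86.8 and 77.2 in pplCoA. Glra3 was at 25.0, 22.2 and 31.5 against 31.2, 30.9 and 33.7 (log2 difference -0.32 ± 0.13). The median over the 7 genes was -0.04. Within the 6 GABAergic clusters with at least 20 nuclei in all replicates, 1 of 31 pairs of a gene and a cluster with at least 10 UMIs did not overlap, against 13.5% of 76644 pairs over all genes. It was Slc6a9 in the Sst-like cluster 2, at 14.3 ± 1.16 CPM in aplCoA and 7.14 ± 1.92 in pplCoA. Glra1, under that floor, did not overlap in clusters 3 and 8 (pplCoA above, 4 and 9 UMIs) and 6 (aplCoA above, 4 UMIs).

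In astrocytes the glycine-clearing genes went opposite ways. Slc6a9 was at 22.7, 20.4 and 17.4 CPM in aplCoA and 13.2, 6.63 and 6.53 in pplCoA, without overlap (log2 difference 1.05 ± 0.24, and 1.53 without pplCoA replicate 1). Gldc, given above per replicate, lay wholly below in aplCoA (-0.40 ± 0.10). Glra2 also lay wholly above in aplCoA, but at 0 to 2.61 CPM. Of 7 genes, 2 lay wholly above and 1 wholly below in aplCoA and 4 overlapped, where 9.91% and 7.03% of 18220 genes did so. Free RNA held Slc6a9 at 15.3 CPM over all libraries, and its part in this gap was not tested.

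The astrocyte gaps were seen in the 2 most numerous astrocyte clusters. Slc6a9 was 20.1 ± 4.10 CPM in aplCoA and 8.96 ± 2.81 in pplCoA in cluster 1, and 27.2 ± 5.70 against 9.17 ± 4.83 in cluster 4, both without overlap, and it overlapped in clusters 12 and 17. Gldc lay wholly above in pplCoA in clusters 1, 4 and 12 and overlapped in cluster 17. Glra2 in cluster 1 (15 UMIs) and Glra3 in cluster 4 (37 UMIs) lay wholly above in aplCoA. Over the 4 astrocyte clusters, 7 of 26 pairs with at least 10 UMIs did not overlap, against 13.4% of 59307 pairs over all genes.

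**Figure D5:**
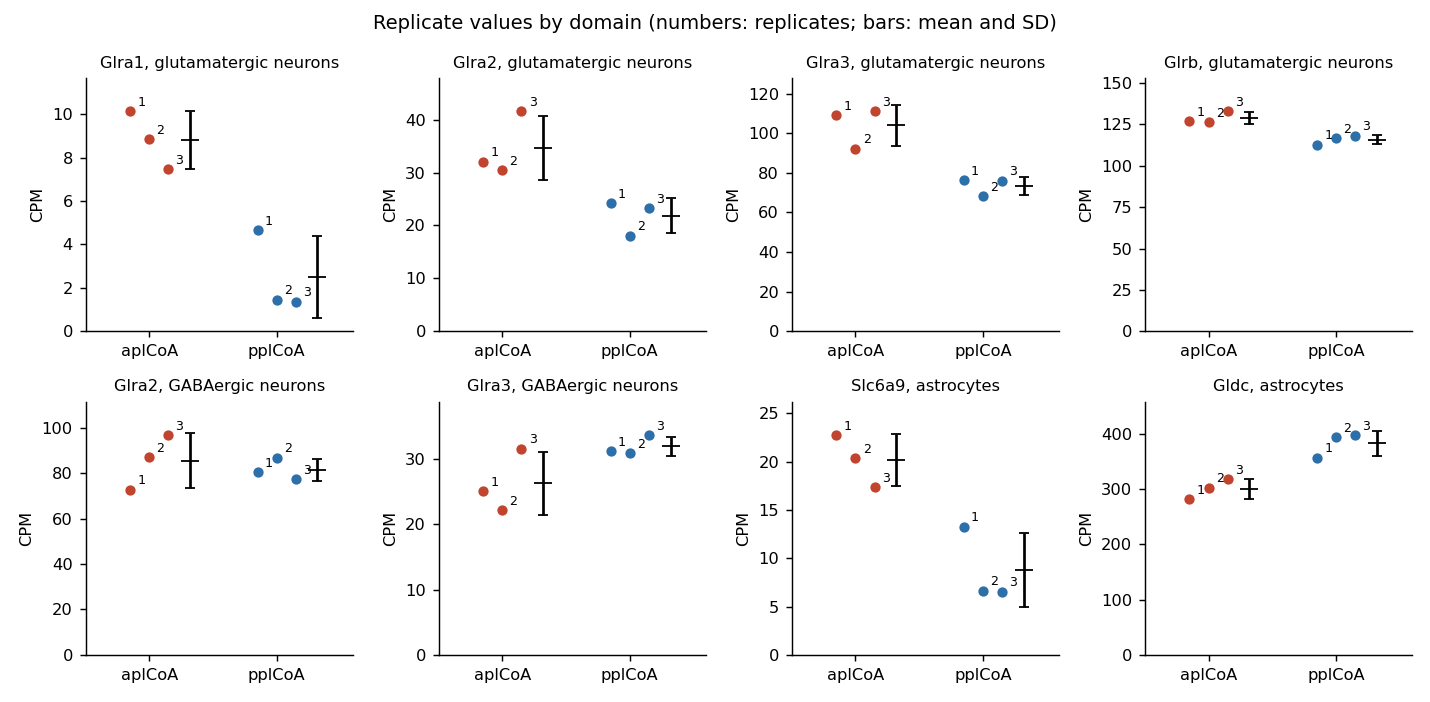
Glra1, Glra2, Glra3 and Glrb in glutamatergic nuclei, Glra2 and Glra3 in GABAergic nuclei, and Slc6a9 and Gldc in astrocytes, in CPM, with numbered points for the 3 replicates of each domain and bars for mean and SD. The domains are apart in all panels but the GABAergic ones, with astrocytic Slc6a9 at 17.4 to 22.7 CPM in aplCoA and 6.53 to 13.2 in pplCoA.

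To describe which glutamatergic nuclei carry Glra1, UMIs of the nuclei with a Glra1 UMI and of those without were summed per replicate, and the quasi-likelihood test of edgeR was run with replicate as a block and p-values adjusted by Benjamini and Hochberg. Of 9810 genes, 10.8% were called at an adjusted p under 0.05, 6.01% of all being higher with Glra1. Glra2 was 0.62 ± 0.10 and Glra3 0.40 ± 0.13 higher on the log2 scale in nuclei with Glra1, given without a test, while Glrb (0.00 ± 0.06) and Gphn (0.08 ± 0.05) were close to level. Of all genes, 6.28% were higher in 6 of 6 replicates. Gphn was one of these, by log2 ratios of 0.04 to 0.24. Glra2 was higher in 5 of 6 (-0.07 in pplCoA replicate 2), Glrb in 5 of 6 (-0.40 in pplCoA replicate 3) and Glra3 in 4 of 6 (-0.45 and -0.54 in pplCoA replicates 2 and 3). Within cluster 5 the differences were -0.12 ± 0.11 for Glra2, -0.02 ± 0.09 for Glra3 and -0.12 ± 0.09 for Glrb.

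The 12 named genes that were higher with Glra1 included the imprinted zinc finger gene Zim1 (log2 1.92 ± 0.12, edgeR adjusted p = 1.96e-06), the forkhead factor gene Foxp2 (1.77), Btbd11, Gm28905 (1.43), the phospholipase gene Plcb4 (1.34), Olfm3 (1.33), the presynaptic gene Rims3 (1.24), the secretogranin gene Scg2, Gm45341 (1.13), the splicing factor gene Nova1 (1.11), the kainate receptor gene Grik4 (1.11) and Kif26b (1.10). Those that were lower included the calcium-activated chloride channel gene Ano2 (-1.37 ± 0.24), Gm28153 (-1.29), the growth factor gene Hgf (-0.98), Reln, which encodes reelin (-0.89), Gm28376 (-0.87), Jph1 (-0.86) and Crym (-0.80). The rule that named them required the same direction in 6 of 6 replicates. The split was made on Glra1 itself, and clusters 5 and 6 held 56.7% of the nuclei with Glra1. Zim1 and Gm28905 were among the leading genes of cluster 5 and Foxp2 of cluster 6, so their calls in part restate cluster membership. Zim1, Foxp2 (31.9 against 9.37 CPM), Btbd11, Rims3 and Gm45341 reached the 20 CPM required only in nuclei with Glra1. Gm28153 and Hgf reached it only in those without. In cluster 5, nuclei with Glra1 numbered 253, 52 and 109 in the aplCoA replicates and 43, 0 and 0 in the pplCoA replicates. A comparison there thus rests on fewer replicates and nuclei. Within cluster 5 nuclei, a comparison chosen after seeing the data, 143 of 9345 genes were called. Gm28905 (0.64), Olfm3 (0.80), Nova1 (0.34), Gm28376 (-1.09) and Jph1 (-0.95) were still called. Foxp2, Ano2, Gm28153 and Hgf were seen in too few of those nuclei to be tested, and the other named genes were not called. Without the replicate block, 23 genes were called and the calls of all named genes were lost. After thinning to 2000 UMIs per nucleus, Jph1 lost its call (edgeR adjusted p = 0.0942). Leaving out aplCoA replicate 1 gave 305 calls, replicate 2 gave 538 and replicate 3 gave 414, against 1057 with all replicates.

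Over the 19 glutamatergic clusters, the gene whose level was most like that of Glra1 was Gm12236 (r 0.95 among 8764 genes compared). Pgp (0.87), Ier3ip1 (0.86), Polr2g (0.84), Gm33680 (0.82) and Gm28905 (0.81) followed. Only genes with at least 20 CPM in some cluster were compared. Gm12236, Pgp, Ier3ip1, Polr2g and Gm33680 peaked in cluster 5, where Glra1 was highest, at 21.4 to 25.7 CPM. They passed that floor only just, so their likeness to Glra1 can be partly fixed by it. Gm28905 peaked there too, at 353 CPM. Gm12236, at chr11:55514846-55527715 on the plus strand, is annotated as antisense and lies inside Glra1. It spans 644 exon bases of Glra1, of which 141 lie under exons of Gm12236. It was at 4.22, 3.45 and 3.55 CPM in aplCoA and 2.01, 0.434 and 0.466 in pplCoA, the same order of domains as Glra1. It was seen in 24.1% of glutamatergic nuclei with Glra1 and 1.51% of those without, and within cluster 5 in 32.8% and 9.47%. Whether the counting kept the strands apart is not stated in the sources used here, so its reads and those of Glra1 cannot be told apart with certainty.

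Another 36 genes covered glycine and serine metabolism, amino acid transport, the inhibitory postsynapse and the molybdenum cofactor. They also covered glycine-binding NMDA subunits, chloride transport and the remaining glycine receptor subunit, Glra4. Few of them were called at an adjusted p under 0.05, and the lists were chosen with earlier results of these data known. In glutamatergic nuclei, 1 of 17 tested was called between domains, where 20.7% of 9724 genes were. This was Slc38a2, a transporter of small neutral amino acids, at 69.1, 76.7 and 62.6 CPM in aplCoA and 57.8, 44.0 and 48.3 in pplCoA (log2 0.39 ± 0.11, edgeR adjusted p = 0.0415). Slc38a2 lost its call without aplCoA replicate 1 (edgeR adjusted p = 0.10) or 2 (0.135), without pplCoA replicate 2 (0.141) or 3 (0.117), or with library 1 of aplCoA replicate 1 alone (0.0827). Iqsec3, which binds gephyrin, was not called (0.31 ± 0.10, edgeR adjusted p = 0.0547), but was by DESeq2 (adjusted p = 0.0313), the likelihood ratio test (0.0292), with doublets kept (0.0473) and without pplCoA replicate 1 (0.0344). In GABAergic nuclei, 1 of 19 was called, where 9.82% of 8779 genes were. It was Slc32a1, the vesicular transporter for GABA and glycine (log2 0.44 ± 0.12, edgeR adjusted p = 0.0397), and the call was lost without aplCoA replicate 1 or 2 or pplCoA replicate 1 or 2 (edgeR adjusted p = 0.106 to 0.187), or with library 1 (log2 0.29, 0.269) or library 2 (0.0854) of aplCoA replicate 1 alone.

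In astrocytes, edgeR called 0 of 12 such genes, where 0.617% of 5025 genes were called. At an unadjusted p under 0.05 there were 4 of the 12 and 15.5% of all. DESeq2 called 1 of the 12 and 3.86% of all. This was Grin3a, lower in aplCoA (log2 -0.35 ± 0.10, DESeq2 adjusted p = 0.0216), which the likelihood ratio test of edgeR called too (adjusted p = 0.0257, with 4.56% of all genes called), while its adjusted p was 0.112 by edgeR's main test. In nuclei with Glra1 against those without, 1 of 17 was called, where 10.8% of 9810 genes were. It was Iqsec3 (log2 0.46 ± 0.06, edgeR adjusted p = 0.000598), at 0.13 ± 0.11 within cluster 5 (edgeR adjusted p = 0.820) and with an adjusted p of 0.0811 after thinning and 0.114 without the block. The median log2 difference over the tested genes was 0.15, 0.09 and 0.03 for the domains in glutamatergic nuclei, GABAergic nuclei and astrocytes, beside 0.00, 0.02 and 0.02 over all genes.

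By class, over pooled nuclei, the glycine and serine exchanger gene Slc7a10 was at 179 CPM in astrocytes and at most 1.7 in neurons, and Phgdh, which starts serine synthesis, at 89.1 in MOLs and 43.7 in astrocytes against 0.9 in glutamatergic nuclei. Gatm, which uses glycine to make guanidinoacetate, was at 694 CPM in MOLs. Grin3a, a glycine-binding NMDA subunit, was at 597 CPM in OPCs, 330 in astrocytes, 276 in GABAergic and 133 in glutamatergic nuclei. The chloride extruder gene Slc12a5 was at 83.5 and 89.2 CPM in GABAergic and glutamatergic nuclei and at most 17.6 in glia. The remaining alpha subunit gene, Glra4, was at a mean of at most 8.41 CPM over replicates in every class named here.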

How the data were processed

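Nuclei of 6 replicates (7 libraries) were measured by 10x Genomics 3' sequencing. The authors deposited raw UMI counts per gene and barcode, made with Cell Ranger 5.0.0 (per the submitters' notes) on mm10 with introns included and without a filter on barcodes. The genes and lists described here were chosen with earlier results of these data known. Barcodes with at least 1000 genes were kept (52201), then filtered on UMIs (5 median absolute deviations, 51538 left) and on mitochondrial and ribosomal percentages (5 interquartile ranges, 50535 left), and the 4123 barcodes with the highest Scrublet doublet scores were removed (1% per 1000 nuclei). Nuclei were clustered (Python 3.11.15, scanpy 1.11.5, Leiden resolution 1.0, 5000 variable genes, 50 components), without the genes of the set or the pathway lists, and named from markers.

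UMIs were summed per replicate and class. With TMM scaling, edgeR 4.0.16 (R 4.3.3) fitted genes seen in at least 10% of nuclei, with an adjusted p threshold of 0.05. DESeq2 1.42.0 was an alternative. Domain differences of the genes of the set come from the fit of genes with at least 10 UMIs. Their differences in the Glra1 comparison come from the fit of genes seen in at least 10% of nuclei. Named genes of the Glra1 comparison had at least 20 CPM in a group, the same direction in 6 of 6 replicates, and were the 12 and 8 with the largest changes, of which 1 is not reported here. Tested on simulated data for glutamatergic nuclei (9724 genes), the fit recovered 99.5% of 200 genes changed by log2 1, with 8 false calls. For the Glra1 comparison (9810 genes) it recovered 99.5%, with 22 false calls, a larger share of calls than the 0.05 threshold aims at. The simulated counts held no replicate effect, though the Glra1 fit blocks on replicate. The planted change exceeded those of Slc38a2 (0.39), Slc32a1 (0.44) and Iqsec3 (0.31 and 0.46), so the recovery does not cover changes of that size. Replicates are pools of mice, so p-values cover the spread between pools, which also holds dissection. Library depth was 50812605 to 129624583 UMIs over all barcodes, and genes under about 10 CPM rest on few UMIs per replicate.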

Additional observations from a re-analysis of the deposited data

Results flagged for a closer look

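In the comparison of glutamatergic nuclei with a Glra1 UMI and those without, the Glrb log2 ratio in pplCoA replicate 3 was -0.40, far from the other 5 replicates at 0.05 to 0.11. The gap to the nearest was 0.87 of the whole range, and that replicate had 35 nuclei with Glra1. Chance alone flags about 1 in 20 such groups if all replicates vary alike. Here they did not rest on like counts. Nuclei with Glra1 held 43 Glrb UMIs in pplCoA replicate 3 and 898 in aplCoA replicate 1. Glra2, Glra3 and Gphn were screened in the same way.

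The 1634 unnamed nuclei, which entered no comparison, also held UMIs of these genes. Their pooled levels were 4.37 CPM for Glra1, 52.9 for Glra2, 66.9 for Glra3, 71.3 for Glrb, 18.4 for Slc6a9, 2.29 for Gldc and 598 for Gphn. They made up 3.72 to 5.03% of nuclei in the aplCoA replicates and 2.12 to 2.52% in the pplCoA replicates.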

How the results depend on the processing

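The higher aplCoA levels of Glra1, Glra2, Glra3 and Glrb in glutamatergic nuclei and of Slc6a9 in astrocytes kept their direction under all 11 alternatives (Glra1 log2 1.40 to 2.56, Slc6a9 0.82 to 1.53), as did the lower astrocytic Gldc (-0.53 to -0.34). In GABAergic nuclei, Glra3 ran from -0.48 to 0.12. The share of glutamatergic nuclei with at least 2 Glra1 UMIs was 2.47% in aplCoA and 0.602% in pplCoA, and thinned to 2000 UMIs the share was 1.93% and 0.574%. Leaving out a replicate gave 7.17 to 8.23% and 1.6 to 3.39%.

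Counts of genes called between domains depended on the setting. In glutamatergic nuclei 2012 became 3083 with genes of at least 10 UMIs, and 842 to 2418 with a replicate left out. In GABAergic nuclei 862 became 186 with library 1 of aplCoA replicate 1 alone, and 306 to 876 with a replicate left out. In astrocytes 31 became 229 by the likelihood ratio test, 194 by DESeq2, 76 with genes of at least 10 UMIs, 161 with classes from marker UMIs, 164 with doublets kept, 2 with library 1 alone and 0 to 269 with a replicate left out (269 without pplCoA replicate 1). For nuclei with Glra1, 1057 became 673 by DESeq2, 1854 with genes of at least 10 UMIs, 342 after thinning, 143 in cluster 5 alone (chosen after seeing the data) and 305 to 1398 with a replicate left out. The cause was not tested.

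Nothing in the labels ties same-numbered replicates across domains, and their deviations correlated with r of 0.07, -0.06 and 0.10 in glutamatergic nuclei, 0.01, -0.17 and -0.01 in GABAergic nuclei and 0.39, 0.23 and 0.09 in astrocytes. Not every pair reached 0.1 in any class, and not every astrocyte sample correlated best with its own number, so the samples were taken to share only a number. With 3 replicates per domain this check cannot decide whether same-numbered samples shared a batch. A replicate block gave 1868 calls in glutamatergic nuclei, 769 in GABAergic nuclei and 225 in astrocytes, and with it Iqsec3 was called between domains in glutamatergic nuclei (edgeR adjusted p = 0.0436) and Slc38a2 was not (0.0622), nor was Slc32a1 in GABAergic nuclei (0.0591). In the Glra1 comparison, where each replicate gives both groups, the fit without the block called 23 genes and 0 pathway genes.

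Pathway calls between domains in glutamatergic nuclei were 2 by the likelihood ratio test, 2 by DESeq2, 2 with doublets kept, 0 with library 1 alone, 2 with library 2 alone and 0 to 3 with a replicate left out. Those with Glra1 were 2 by the likelihood ratio test, 0 after thinning, 0 in cluster 5 alone, and 1 to 2 with a replicate left out. Crym reversed to 0.15 in cluster 5 alone.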
